A study of Mus musculus with 9 samples.

Results

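The transcripts described here are those that 2 doxycycline-treated lines of mouse embryonic stem (ES) cells shared when both were set against J1, an established mouse ES cell line. A gene was kept when each of the 6 stable-line libraries lay above each of the 3 J1 libraries, or each lay below, in CPM, reads of a gene scaled to library size. The rule kept 6597 of 40213 gene symbols, 3074 higher and 3523 lower in the stable lines. Of these, 6024 were among the 16562 genes with enough reads for testing, 2887 higher and 3137 lower, which is 17.4% and 18.9% of the genes tested. The other 573 fell under the low-count filter (187 higher, 386 lower) and are counted here but not described further.

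The study held 9 RNA sequencing libraries in 3 groups of 3. The EWS-OCT4 group is a Niwa stable line carrying a fusion of EWS to OCT4, and the OCT4 group is a Niwa stable line carrying OCT4. Both stable lines received doxycycline at 1 µg/ml to lower the cells' own OCT4, and the labels name no such treatment for J1, the control. All 3 groups were grown in ES cell medium with LIF, the cytokine that holds mouse ES cells in self-renewal. The labels do not say whether the libraries of a group were separate cultures or separately derived lines, so the p-values below take the spread among libraries as their error, and that spread may be technical. Construct, host line, clone and doxycycline cannot be told apart in any comparison with J1. Depth was 21149358 to 24786305 counted reads per library. The spread between libraries of a group was uneven and widest in J1. Between pairs of libraries, chi-square of the counts per degree of freedom was 12.3 to 32 in J1. It was 8.35 to 16.5 in OCT4 and 3.36 to 5.45 in EWS-OCT4.

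OCT4, encoded by Pou5f1, is a POU-domain transcription factor that binds DNA together with SOX2 and keeps ES cells pluripotent. Loss of OCT4 is known to turn mouse ES cells toward trophectoderm, the outer layer of the blastocyst. EWS, encoded by Ewsr1, is an RNA-binding protein of the FET family whose N-terminal region acts as a strong activation domain in tumour fusion proteins. NANOG, ESRRB, TFCP2L1, KLF4 and ZFP42 belong to the naive pluripotency network that LIF sustains.

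Pou5f1 itself was kept lower. Its level was 522, 639 and 545 CPM in J1, 165, 168 and 162 in OCT4 and 25.6, 29.3 and 25.6 in EWS-OCT4, so the 3 groups did not overlap and EWS-OCT4 was lowest. The deposited symbol counts do not separate transcripts of the endogenous gene from those of a construct, so these values are not a measure of either alone. Ewsr1 was not kept, with 478, 621 and 582 CPM in J1, 426, 465 and 516 in OCT4 and 495, 549 and 551 in EWS-OCT4. The 24 symbols of a general pluripotency list were all detected, summing to 7718 to 8397 CPM in J1, 5158 to 5242 in OCT4 and 7408 to 7549 in EWS-OCT4.

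Among the pluripotency genes named first and the 24 genes with the largest shared change described below, the windows before 3 kept genes are shown because the first RefSeq entry of each holds a searched motif. Each is the 250 bases before the start of the gene as RefSeq gives it in build GRCm38.p6, 5′ to 3′ on the gene's own strand. Capitals mark the octamer ATTTGCAT, the classic binding sequence of POU factors, or the E-box CACGTG, on either strand.
Zfp42 (chr8:43307010-43307259, minus strand): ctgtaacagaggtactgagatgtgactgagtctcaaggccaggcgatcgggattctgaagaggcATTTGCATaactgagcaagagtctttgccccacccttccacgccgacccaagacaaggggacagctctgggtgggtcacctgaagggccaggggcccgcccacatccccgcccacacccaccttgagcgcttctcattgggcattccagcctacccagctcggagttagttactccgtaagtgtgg
Fkbp6 (chr5:135350045-135350294, minus strand): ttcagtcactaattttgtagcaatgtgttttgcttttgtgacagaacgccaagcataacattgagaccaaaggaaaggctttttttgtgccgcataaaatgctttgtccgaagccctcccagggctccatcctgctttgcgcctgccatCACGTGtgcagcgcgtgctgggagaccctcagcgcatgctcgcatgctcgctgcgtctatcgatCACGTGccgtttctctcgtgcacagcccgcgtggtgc
Lats2 (chr14:57746124-57746373, minus strand): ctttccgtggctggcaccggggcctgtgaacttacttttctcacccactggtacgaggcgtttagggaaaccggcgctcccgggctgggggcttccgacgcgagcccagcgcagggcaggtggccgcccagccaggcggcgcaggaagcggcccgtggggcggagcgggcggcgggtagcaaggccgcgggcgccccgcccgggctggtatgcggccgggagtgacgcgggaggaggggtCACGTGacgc
Zfp42 was lower in the stable lines, and Fkbp6 and Lats2 were higher. Over 300-base windows (250 before to 50 after the start) of 12526 tested genes with an entry, the octamer was found in 1.34% of 2232 kept higher, 1.36% of 2360 kept lower and 1.48% of all. The E-box was found in 8.38%, 10.5% and 9.92%, and TGATGCAA, a sequence known from amino acid response elements, in 0.717%, 0.678% and 0.599%. Median GC content was 61.0% in the higher, 60.0% in the lower and 60.3% in all windows. A match describes these letters only.

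Log2 changes were fitted by edgeR's quasi-likelihood test over all 16562 genes, with Benjamini-Hochberg adjustment. At an adjusted p under 0.05, the pooled stable lines were higher than J1 for 5294 genes (32.0%) and lower for 5263 (31.8%). Of the kept genes, 2866 higher and 3104 lower were also called, and 4587 called genes were not kept. The rule and this contrast use the same libraries, so the pooled values below describe the kept genes and support nothing. The median pooled log2 change of all genes tested was 0.007. Both lines differed from J1 by at least 2-fold in the same direction for 752 kept higher and 852 kept lower genes, and by at least 4-fold for 238 and 182. Protein-coding genes were kept higher in 2524 and lower in 2895 of 14368, and long noncoding RNAs in 236 and 148 of 1390.

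At the limit of the rule the separation was thin. Just inside lay Polr3g, Usp47, Srsf2 and Cog7, whose nearest stable-line and J1 libraries were 0.0000 to 0.0004 apart on the log2 scale. Just outside lay Dpcd, Atp11a, Znrf1 and Plrg1, which overlapped by 0.0002 to 0.0004.

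Genes kept higher with the largest shared change, by the smaller of the 2 lines' fold changes and with a mean of at least 10 CPM in both stable lines, were led by Mid1. Mid1 encodes a microtubule-bound ubiquitin ligase, and its level was 2.57, 4.39 and 2.82 CPM in J1, 1419.6, 1403 and 1591 in OCT4 and 2075, 2226 and 2203 in EWS-OCT4. All 6 stable-line libraries lay far above J1, with a pooled log2 change of 9.09 (SE 0.15). The imprinted growth factor gene Igf2 stood at 1.28, 0.559 and 0.799 CPM in J1, 500.4, 508 and 589 in OCT4 and 85.5, 96.3 and 100 in EWS-OCT4, with OCT4 well above EWS-OCT4. Rhox5, an X-linked reproductive homeobox gene, stood at 8.36, 11.8 and 11.3 CPM in J1, 439.7, 518 and 566 in OCT4 and 203, 214 and 213 in EWS-OCT4. Again OCT4 was the higher of the 2 stable lines, and both were far above J1. Fkbp6, which encodes an immunophilin needed in meiosis, stood at 0.402, 0.997 and 0.423 CPM in J1, 19.3, 21.5 and 20.9 in OCT4 and 21.1, 21.4 and 19.3 in EWS-OCT4. The 2 stable lines overlapped, with a log2 difference of 0.0016 (SE 0.11) that did not pass the test. Erdr1x stood at 0, 29.1 and 6.25 CPM in J1, 449, 441 and 582 in OCT4 and 289, 405 and 421 in EWS-OCT4. Its J1 libraries were uneven, and the gene lies in a repeated region of the sex chromosomes, so its reads may be split among copies.

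The other 7 higher genes were Sfmbt2, Sox21, Lats2, En2, Rhox6, Arl14epl and Tlnrd1. Sfmbt2, an imprinted polycomb-group gene, was 6.62 ± 0.669 CPM in J1, 89.5 ± 7.36 in OCT4 and 149.7 ± 4.02 in EWS-OCT4 (mean ± SD, n = 3 here and below). Sox21, a SOX-family factor, was 2.46 ± 0.354 CPM in J1, 22.7 ± 2.2 in OCT4 and 76.5 ± 3.06 in EWS-OCT4. Lats2, a kinase of the Hippo pathway, was 1.89 ± 0.397 CPM in J1, 15.4 ± 0.406 in OCT4 and 28.4 ± 0.744 in EWS-OCT4. These 3 were highest in EWS-OCT4, whereas Rhox6 was highest in OCT4 at 1.44 ± 0.186 CPM in J1, 48.6 ± 0.961 in OCT4 and 10.6 ± 1.36 in EWS-OCT4. The homeobox gene En2 was 4.91 ± 0.469 CPM in J1, 36.9 ± 2.54 in OCT4 and 44.1 ± 4.46 in EWS-OCT4.

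Among kept lower genes with at least 10 CPM in J1, Acan, the cartilage proteoglycan aggrecan, had the largest shared fall in level. It stood at 42.9, 40.2 and 43.3 CPM in J1, 2.96, 3.52 and 3.4 in OCT4 and 2.5, 2.34 and 1.77 in EWS-OCT4. Kif1a, an axonal transport kinesin, stood at 109.9, 115 and 115 CPM in J1, 14.8, 15.6 and 15.4 in OCT4 and 9.62, 9 and 11.1 in EWS-OCT4. Trh, the precursor of thyrotropin-releasing hormone, stood at 236, 320.1 and 272 CPM in J1, 10.2, 13.5 and 14 in OCT4 and 51, 49.3 and 50.9 in EWS-OCT4. In all 3 genes the stable lines lay far below J1, and Trh was the one in which EWS-OCT4 stayed above OCT4. The other 9 were Abcc8, a sulfonylurea receptor, Cubn, the endocytic receptor cubilin, Plac8, Calb2, which encodes calretinin, Ephx2, an epoxide hydrolase, the mucin Muc2, the proteoglycan Ncan, Sgo2b and Slfn9. Their pooled log2 changes ran from -4.68 for Abcc8 to -2.74 for Slfn9. Calb2, Ncan and Sgo2b lie on chromosome 8, Slfn9 on chromosome 11 and Ephx2 on chromosome 14, 3 chromosomes whose kept genes were unevenly split.

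**Figure D1:**
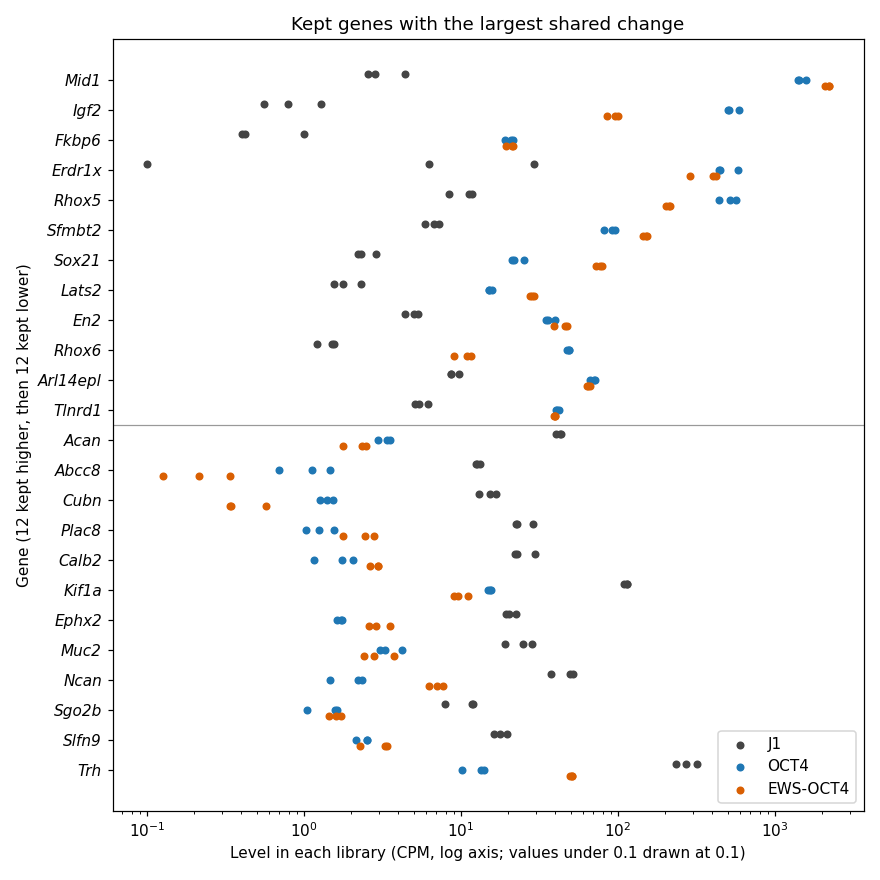
Level in each library (points, CPM, log axis) of the 24 kept genes with the largest shared change, 12 higher (top) and 12 lower (bottom), coloured by group. In every row the 6 stable-line points lie on one side of the 3 J1 points; Mid1 and Igf2 show the widest separation.

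Kept genes were unevenly spread over the chromosomes. On chromosome 8, 407 of 865 tested genes (47.1%) were kept lower and 36 (4.16%) higher, and on chromosome 11, 642 of 1327 (48.4%) were kept lower and 63 (4.75%) higher. Over the genes of chromosome 8 with at least 5 CPM, the median log2 change against J1 was -0.414 in EWS-OCT4 and -0.491 in OCT4. On chromosome 11 it was -0.461 and -0.493. On chromosome X, 189 of 601 (31.4%) were kept higher, with medians of 0.173 in EWS-OCT4 and 0.626 in OCT4. Chromosome 12 gave 33.1% lower and 21.9% higher, and chromosome 14 gave 26.1% lower. On each of the other autosomes, 10.5% to 22.1% were kept lower. The 2 lines share the J1 libraries in these comparisons.

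Kept genes also lay in stretches along the chromosomes. Genes were ordered along each chromosome, and stretches were taken where the running median of 31 genes was past 0.4 on the log2 scale in one direction in both lines over at least 31 genes. On chromosomes 8 and 11 the running median was below 0 in both lines at each of 574 and 864 ordered genes, and on chromosome X OCT4 lay above EWS-OCT4 at 373 of 375. The distal end of chromosome 12, from Ston2 to Sp4, held 96 genes with at least 5 CPM, of which 84 (87.5%) were kept higher and 0 lower. Their median log2 change was 1.05 in EWS-OCT4 and 0.98 in OCT4. On chromosome 14, Micu2 to Wbp4 held 91 genes, of which 73 (80.2%) were kept lower, with medians of -0.91 and -0.99. On chromosome 17, Ypel5 to Prepl held 41 genes, of which 34 (82.9%) were kept lower, with medians of -0.91 and -0.98. Chromosomes 8 and 11 held 3 lower stretches each, chromosome 12 held 2 more, and chromosome X held 1 higher stretch of 34 genes, Tslrn1 to Naa10, with medians of 0.50 in EWS-OCT4 and 0.993 in OCT4. The stretches together held 656 genes, of which 353 were kept lower and 115 higher. They were chosen on the same values that the rule uses, so a high kept share inside them follows from the choice. The longest unbroken run of kept genes was 18 genes on chromosome 17, Galnt14 to Gpatch11, all lower. What underlies these stretches was not tested. Counts of the gene lists below stand beside 17.4% kept higher and 18.9% kept lower over all genes tested. The lists with the most uneven counts are given a second time without chromosomes 8, 11, 12, 14, 17, X and Y. Without them 11793 genes were left, of which 2254 were kept higher and 1537 lower, with a median of 0.078.

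**Figure D2:**
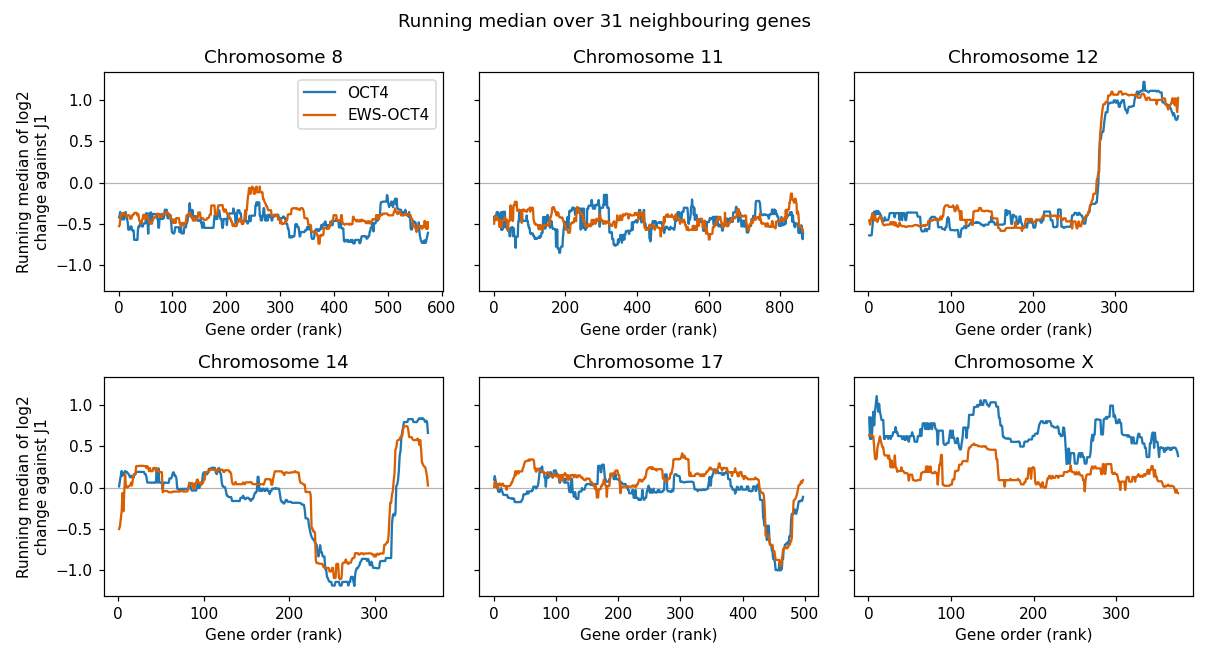
Running median over 31 neighbouring genes of the log2 change against J1 (vertical axis) by gene order (horizontal axis, rank along the chromosome) for EWS-OCT4 and OCT4 on 6 chromosomes. The 2 lines follow each other at the distal end of chromosome 12, near 1, and in the stretches of chromosomes 14 and 17, near -0.91 to -0.99, and part on chromosome X.

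**Figure D3:**
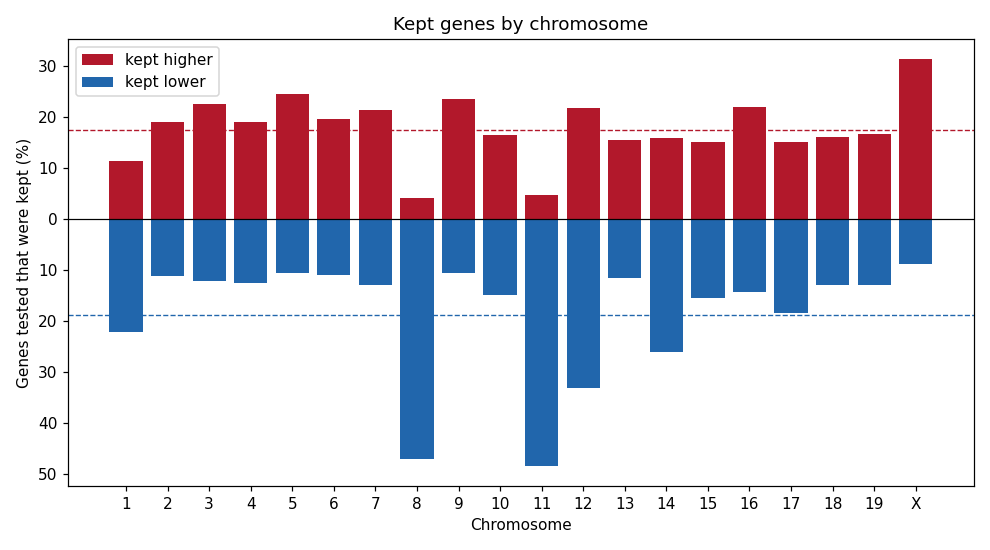
Share of tested genes kept higher (bars up) and kept lower (bars down) on each chromosome, in percent, with dashed lines at the shares over all genes tested. Chromosomes 8 and 11 reach 47.1% and 48.4% lower, and chromosome X reaches 31.4% higher.

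Naive pluripotency genes went both ways. Of 24 tested, 9 were kept higher and 5 lower, with a median pooled log2 change of 0.26. The list median against J1 was 0.364 in EWS-OCT4 and -0.205 in OCT4, so the lines shared no rise of the list as a whole. Without the 7 chromosomes the counts were 8 higher and 0 lower of 15, with a median pooled log2 change of 0.921. All 5 kept lower genes of the list thus lay on those chromosomes. Nanog stood at 277, 249.8 and 258 CPM in J1, 514, 525 and 489 in OCT4 and 487, 478 and 478 in EWS-OCT4. Tfcp2l1 stood at 238, 217 and 240.3 CPM in J1, 687, 718 and 631 in OCT4 and 681, 674 and 624 in EWS-OCT4. In both genes every stable-line library was above J1 and the 2 lines lay close together. Zfp42, also known as Rex1, stood at 1307, 1434 and 1534 CPM in J1, 439, 407 and 441 in OCT4 and 736, 749.9 and 789 in EWS-OCT4, lowest in OCT4. Esrrb was 505 ± 20 CPM in J1, 324 ± 12.3 in OCT4 and 459 ± 5.57 in EWS-OCT4. Klf2, a Krüppel-like factor, was 175 ± 14.7 CPM in J1, 60.2 ± 0.83 in OCT4 and 109 ± 3.13 in EWS-OCT4, and both were kept lower. Klf4 was not kept, at 197 ± 4.2 CPM in J1, 212 ± 15.4 in OCT4 and 172 ± 12.1 in EWS-OCT4.

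General pluripotency genes were kept higher in 3 and lower in 8 of 24 tested, and in 3 and 4 of 19 without the 7 chromosomes. Sox2, the partner of OCT4, was 716 ± 89.3 CPM in J1, 575 ± 29.8 in OCT4 and 580.3 ± 35.4 in EWS-OCT4. Fgf4, a target of the pair, was 183 ± 10.8 CPM in J1, 158 ± 13 in OCT4 and 160.2 ± 1.04 in EWS-OCT4. Both were lower in the stable lines by less than 2-fold, and EWS-OCT4 differed from OCT4 by 0.012 (SE 0.085) for Sox2 and 0.024 (SE 0.072) for Fgf4 on the log2 scale, neither past the test. Tdh, a threonine dehydrogenase used by mouse ES cells, was 267 ± 25.5 CPM in J1, 39.7 ± 3.41 in OCT4 and 87.3 ± 2.63 in EWS-OCT4. Fbxo15, an F-box gene of ES cells, was 74.4 ± 5.35 CPM in J1, 167 ± 6.12 in OCT4 and 124 ± 1.57 in EWS-OCT4. Dppa2 was 58.8 ± 2.59 CPM in J1, 81.2 ± 6.01 in OCT4 and 139 ± 5.88 in EWS-OCT4, and both were kept higher. Genes of the LIF and STAT3 response were kept higher in 10 and lower in 1 of 21, and in 8 and 0 of 16 without the 7 chromosomes. Bcl3, an atypical NF-kappaB inhibitor family member, was 23.3 ± 3.67 CPM in J1, 62.2 ± 4.88 in OCT4 and 45.8 ± 2.11 in EWS-OCT4, and Junb 7.83 ± 0.621 CPM in J1, 15 ± 1.85 in OCT4 and 19.6 ± 0.821 in EWS-OCT4.

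Formative and primed genes, which mark exit from the naive state, were kept lower in 7 and higher in 1 of 21. The pooled median was -0.73, with -0.088 in EWS-OCT4 and -0.862 in OCT4, so the list as a whole fell mostly in OCT4. Without the 7 chromosomes 2 of 10 were kept lower. Lef1, a Wnt effector, was 6.07 ± 0.434 CPM in J1, 0.206 ± 0.101 in OCT4 and 0.622 ± 0.128 in EWS-OCT4. Dnmt3a, a de novo DNA methyltransferase, was 228 ± 9.24 CPM in J1, 87.8 ± 2.53 in OCT4 and 46 ± 1.22 in EWS-OCT4. Fgf15 was 9.41 ± 0.827 CPM in J1, 3.18 ± 0.597 in OCT4 and 2.19 ± 0.399 in EWS-OCT4. The exception was Pim2, a kinase, at 12.2 ± 0.0237 CPM in J1, 15 ± 1.56 in OCT4 and 24.4 ± 0.72 in EWS-OCT4.

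Genes of the 2-cell-like state, a rare state of ES cells that resembles the early embryo, were kept higher in 17 of 19 and lower in 0. Their median pooled log2 change was 2.47, and 16 of 17 were kept higher without the 7 chromosomes. Zscan4c stood at 5.7, 3.31 and 5.74 CPM in J1, 35.2, 27.7 and 29.9 in OCT4 and 24.5, 22.2 and 24.4 in EWS-OCT4. Zscan4d was 1.68 ± 0.423 CPM in J1, 11.9 ± 1.7 in OCT4 and 13.6 ± 0.857 in EWS-OCT4. Zscan4b was 3.91 ± 0.693 CPM in J1, 19.5 ± 1.64 in OCT4 and 16.5 ± 1.54 in EWS-OCT4. The Zscan4 genes are near-identical copies, so the division of reads among them is uncertain. The summed level of the list was 150.0 to 170.6 CPM in J1, 287.8 to 311.5 in OCT4 and 317.3 to 351.3 in EWS-OCT4.

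Trophectoderm genes were kept higher in 16 and lower in 2 of 27 tested, with a median of 1.32, and in 12 and 1 of 17 without the 7 chromosomes. Cdx2, the trophectoderm regulator, stood at 0.08, 0 and 0.094 CPM in J1, 6.65, 9.12 and 8.11 in OCT4 and 1.64, 1.43 and 2.02 in EWS-OCT4, from 4 reads in all of J1, 539 in OCT4 and 115 in EWS-OCT4. Gata3 stood at 0.08, 0.279 and 0.188 CPM in J1, 17.8, 19.8 and 21.7 in OCT4 and 2.84, 3.16 and 2.19 in EWS-OCT4. OCT4 was above EWS-OCT4 in both genes, and all 6 libraries were above J1. The list median against J1 was 0.857 in EWS-OCT4 and 1.602 in OCT4. Of the kept genes of the list, 14 were lower in EWS-OCT4 than in OCT4 at an adjusted p under 0.05 (edgeR), and 3 were higher. The summed level of the whole list was 359.0 to 403.4 CPM in J1, 959.1 to 1024 in OCT4 and 521.4 to 536.1 in EWS-OCT4. Psg18, Prl3d1, Prl2c2 and Tpbpa, markers of later placental cells, had no read in any library. The 2 kept lower were Tspan8, a tetraspanin, at 5.18 ± 0.451 CPM in J1, 0.46 ± 0.188 in OCT4 and 2.32 ± 0.667 in EWS-OCT4, and Cdh3. Cdh3, which encodes P-cadherin and lies on chromosome 8, was 75.4 ± 3.92 CPM in J1, 46.6 ± 3.98 in OCT4 and 37.9 ± 2.95 in EWS-OCT4. In bulk RNA, more cells of a type and more RNA per cell cannot be told apart.

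Homeobox genes outside the core network were counted in a pair of lists. Of 9 tested Rhox genes, 6 were kept higher and 1 lower, all of them on chromosome X and so absent from the counts without the 7 chromosomes. Rhox9 was 1.18 ± 0.24 CPM in J1, 43.6 ± 4.04 in OCT4 and 6.9 ± 0.958 in EWS-OCT4, and Rhox10, the exception, was 8.44 ± 0.806 CPM in J1, 3.09 ± 0.416 in OCT4 and 2.53 ± 0.651 in EWS-OCT4. Hox and related homeobox genes were kept higher in 7 and lower in 0 of 19, with 3 on opposite sides of J1, and in 5 of 13 without the 7 chromosomes. Meis2, a cofactor of HOX proteins, was 1.19 ± 0.395 CPM in J1, 8.44 ± 0.617 in OCT4 and 12.7 ± 1.37 in EWS-OCT4, and Hoxc13 1.18 ± 0.319 CPM in J1, 13.7 ± 0.797 in OCT4 and 2.5 ± 0.329 in EWS-OCT4. Genes around X inactivation were kept higher in 7 of 12, beside 31.4% of all tested genes of chromosome X, and none of the list is left without the 7 chromosomes. Xist, the noncoding RNA that coats an inactive X, stood at 0.121, 0.319 and 0.094 CPM in J1, 11.9, 12.7 and 11.4 in OCT4 and 4.33, 5.8 and 5.52 in EWS-OCT4. Of 7 tested Y-linked genes, 3 were kept lower and 0 higher, and 2 lay on opposite sides of J1, with list medians of 0.15 in EWS-OCT4 and -1.88 in OCT4 against J1. Uba1y was kept lower, at 36.8 ± 5.62 CPM in J1, 3.44 ± 0.242 in OCT4 and 9.4 ± 1.25 in EWS-OCT4. Eif2s3y, also kept lower, was 243 ± 5.2 CPM in J1, 56.1 ± 1.89 in OCT4 and 188 ± 4.1 in EWS-OCT4.

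Signalling lists held kept genes in both directions, beside 17.4% kept higher and 18.9% kept lower over all genes tested. In the Hippo, Notch and hedgehog list, 10 were kept higher and 4 lower of 28 (8 and 3 of 22 without the 7 chromosomes). Amotl2, which binds YAP, was 16.7 ± 0.664 CPM in J1, 137 ± 1.4 in OCT4 and 89.3 ± 3.28 in EWS-OCT4, and Ccn1, a YAP target, 5.56 ± 0.0487 CPM in J1, 40.5 ± 0.687 in OCT4 and 20.9 ± 1.55 in EWS-OCT4. In the Wnt list 11 were kept higher and 9 lower of 40 (27.5% and 22.5%). The ligand Wnt7b was 0.915 ± 0.191 CPM in J1, 30.2 ± 1.36 in OCT4 and 4.86 ± 0.703 in EWS-OCT4. The effector Tcf7, which lies on chromosome 11, was 142 ± 4.65 CPM in J1, 56.8 ± 0.959 in OCT4 and 38.5 ± 2.11 in EWS-OCT4. In the Nodal list 4 and 3 of 18 were kept (22.2% and 16.7%), near the shares over all genes. Smad7, an inhibitor of the pathway, was 34.4 ± 4.64 CPM in J1, 73.2 ± 7.63 in OCT4 and 77 ± 3.69 in EWS-OCT4. The targets Lefty1 and Lefty2 were lower in both lines but by very different amounts, given below. Imprinted genes split 10 higher and 8 lower of 41 (24.4% and 19.5%). Plagl1, a zinc finger regulator, was 42 ± 3.34 CPM in J1, 14.4 ± 0.86 in OCT4 and 3.61 ± 0.378 in EWS-OCT4, opposite in direction to Igf2.

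Lists of cell shape, matrix and adhesion differed in how their kept genes split. Of 39 cytoskeleton and motility genes, 18 were kept higher and 5 lower (15 and 3 of 32 without the 7 chromosomes). S100a11 was 26.8 ± 2.49 CPM in J1, 68 ± 3.92 in OCT4 and 62.4 ± 2.78 in EWS-OCT4. Matrix and integrin genes were kept higher in 15 and lower in 8 of 42 (11 and 5 of 27). Spp1, the matrix protein osteopontin, was 131 ± 10.7 CPM in J1, 376 ± 20.5 in OCT4 and 359.9 ± 7.46 in EWS-OCT4, and Nid1, a basement membrane component, 87.8 ± 8.27 CPM in J1, 316 ± 5.85 in OCT4 and 207 ± 2.1 in EWS-OCT4. Epithelial and junction genes were kept higher in 13 and lower in 12 of 41 (12 and 6 of 28), and collagens in 3 and 8 of 34. Vim, an intermediate filament gene, was 57.8 ± 2.35 CPM in J1, 249 ± 13.9 in OCT4 and 216 ± 8.2 in EWS-OCT4, and Cdh1, which encodes E-cadherin and lies on chromosome 8, was 825 ± 29.2 CPM in J1, 337 ± 4.68 in OCT4 and 348 ± 11.9 in EWS-OCT4. Fibroblast genes had 2 kept higher and 2 lower of 13 tested, with a median of -0.045. The 18 symbols of that list summed to 1655 to 1916 CPM in J1, 2125 to 2254 in OCT4 and 1855 to 1916 in EWS-OCT4. Col1a1, which does not stand for the list, was 31.2 ± 3.19 CPM in J1, 5.91 ± 0.603 in OCT4 and 2.81 ± 0.58 in EWS-OCT4. Dcn, a fibroblast marker, had 0, 1 and 0 reads in J1, OCT4 and EWS-OCT4.

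Kept genes were lower more often than higher in the proteasome, CCT chaperonin, glycolysis, cholesterol and one-carbon lists, but not in every list of metabolism or protein handling. Heat shock genes were kept higher in 4 and lower in 1 of 21, unfolded protein response genes in 4 and 2 of 21, lysosome and autophagy genes in 6 and 6 of 31, ubiquitin-conjugating enzymes in 6 and 6 of 31, and fatty acid genes in 5 and 7 of 30 (5 and 1 of 21 without the 7 chromosomes). Proteasome genes were kept lower in 21 and higher in 1 of 38 (55.3% lower). Without the 7 chromosomes 10 of 20 were still kept lower. Psmb3, which lies on chromosome 11 in a run of neighbours all kept lower, was 119.9 ± 19.9 CPM in J1, 56.4 ± 1.81 in OCT4 and 57.5 ± 2.14 in EWS-OCT4. Genes of the CCT chaperonin, which folds actin and tubulin, were kept lower in 7 of 9 (5 of 6). Cct8 was 515 ± 14.1 CPM in J1, 361 ± 20.3 in OCT4 and 427 ± 10.2 in EWS-OCT4. Glycolysis genes were kept lower in 11 and higher in 2 of 26 (8 and 2 of 21). Pdk1, a pyruvate dehydrogenase kinase, was 143 ± 10.4 CPM in J1, 39.8 ± 2.86 in OCT4 and 53.3 ± 2.09 in EWS-OCT4. Cholesterol synthesis genes were kept lower in 12 and higher in 4 of 28 (10 and 3 of 22). Dhcr7, which makes cholesterol from its last precursor, was 63.5 ± 2.16 CPM in J1, 41.9 ± 2.15 in OCT4 and 28.3 ± 0.578 in EWS-OCT4. One-carbon and nucleotide genes were kept lower in 14 and higher in 3 of 33 (7 and 2 of 25). Gldc, the glycine decarboxylase, was 254 ± 12.2 CPM in J1, 75.4 ± 4.66 in OCT4 and 101 ± 3.47 in EWS-OCT4.

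Interferon and antigen presentation genes were kept lower in 13 and higher in 0 of 28, with a median of -0.52 (5 lower of 16 without the 7 chromosomes). H2-K1, an MHC class I gene, was 21.5 ± 0.735 CPM in J1, 6.07 ± 0.494 in OCT4 and 7.39 ± 1.01 in EWS-OCT4. Neuronal vesicle genes were kept lower in 13 and higher in 2 of 27 (9 and 2 of 16). Uchl1, a ubiquitin hydrolase abundant in neurons, was 66.3 ± 7.44 CPM in J1, 21 ± 2.67 in OCT4 and 29 ± 0.311 in EWS-OCT4. Several lists lay near or under the background. Ribosomal protein genes were kept higher in 8 and lower in 10 of 82, and the 10 lower ones all lay on the 7 chromosomes (0 lower of 57 without them). Genes that silence retroelements were kept in 1 and 1 of 22.

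**Figure D4:**
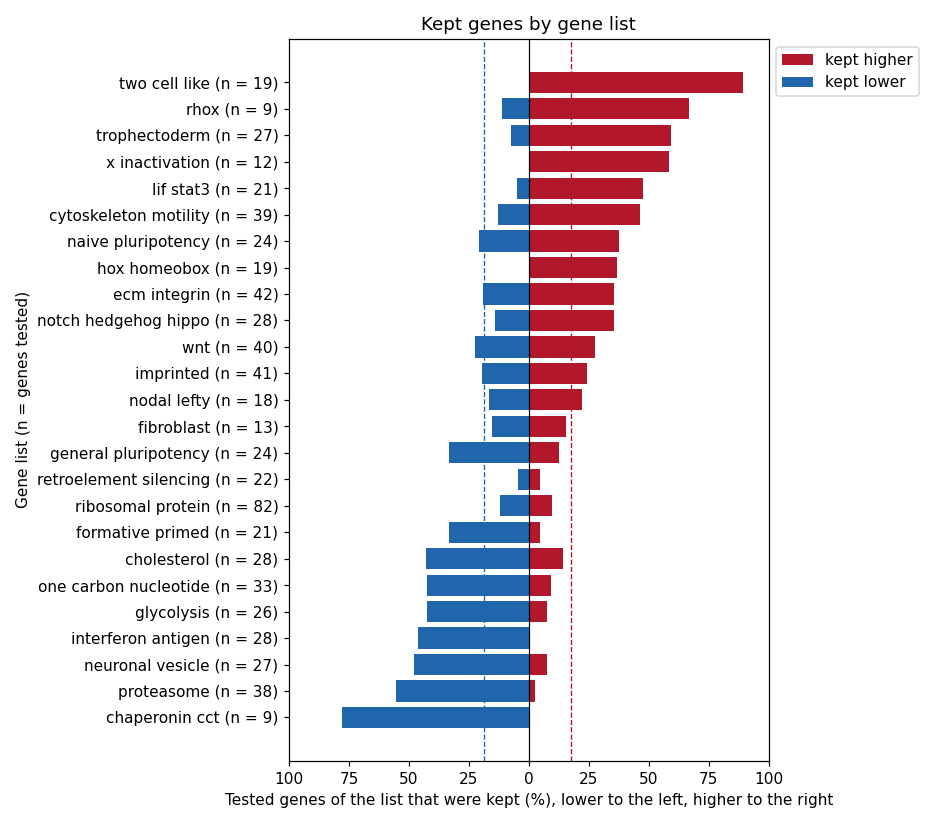
Share of tested genes kept higher (right) and kept lower (left), in percent, for a choice of the gene lists described in the text, with dashed lines at 17.4% and 18.9% over all genes tested. Of the lists drawn, the 2-cell-like, Rhox and trophectoderm lists reach farthest to the right, and the CCT chaperonin and proteasome lists farthest to the left.

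The difference between the 2 stable lines was tested, although the rule bears on it in part, since genes with the lines on opposite sides of J1 cannot be kept. Over all genes, EWS-OCT4 was higher than OCT4 for 5282 (31.9%) and lower for 5730 (34.6%) at an adjusted p under 0.05 in edgeR's quasi-likelihood test. Within the kept genes 3418 differed. Of the 2887 kept higher, 1726 (59.8%) differed, 1170 of them lower in EWS-OCT4, and the median log2 difference was -0.138. Of the 3137 kept lower, 1692 (53.9%) differed, 1029 of them higher in EWS-OCT4, with a median of 0.072. OCT4 was thus the line farther from J1 in 1170 of 1726 and in 1029 of 1692. It was also the farther line in 4302 of the 7594 genes that differed but were not kept. The lean toward OCT4 is therefore not particular to the kept genes. Of the 10538 genes not kept, which hold by construction all genes with the lines on opposite sides of J1, 7594 (72.1%) differed, so the shares of kept and not kept genes are no comparison.

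Among kept genes with at least 10 CPM in both stable lines (higher) or in J1 (lower), the 6 genes with the largest positive and the 6 with the largest negative difference between the lines are given here; they were picked for size and stand for no gene group. Lefty1, a secreted Nodal inhibitor, stood at 33.3, 35.1 and 30.7 CPM in J1, 0.508, 0.678 and 0.42 in OCT4 and 13.8, 12.2 and 13.6 in EWS-OCT4. The log2 difference of EWS-OCT4 against OCT4 was 4.62 (SE 0.16, adjusted p = 2e-13, edgeR). Lefty2 was 101 ± 1.44 CPM in J1, 2.47 ± 0.748 in OCT4 and 58.6 ± 0.575 in EWS-OCT4, a difference of 4.58. Egr1, an early response factor downstream of ERK, was 48.6 ± 8.9 CPM in J1, 2.86 ± 0.439 in OCT4 and 26.8 ± 1.63 in EWS-OCT4. The neuronal genes Crmp1, Gap43 and Ina differed by 3.52, 3.25 and 3.04, with EWS-OCT4 nearer to J1 in all 3. In the other direction, the log2 difference was -2.85 for Cnga3, a subunit of a cyclic nucleotide-gated channel. It was -2.50 for Igf2 (SE 0.10, adjusted p = 1.56e-12, edgeR) and -2.62 for Pou5f1 (SE 0.087, adjusted p = 8.77e-14, edgeR). For Nuak1, Abcc8 and Stox2 it was -2.47, -2.29 and -2.22. The genes with at least a 2-fold shared change and the smallest difference between lines were Fkbp6, Arid1b, Mtmr9, Spg11, Atxn1l and Gpcpd1. Arid1b, a subunit of BAF chromatin remodelling complexes, was 9.3 ± 1.44 CPM in J1, 46 ± 2.72 in OCT4 and 45.7 ± 2.57 in EWS-OCT4.

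The 2 lines lay on opposite sides of J1 for 2010 genes, with EWS-OCT4 higher and OCT4 lower for 968 (5.84%) and the reverse for 1042 (6.29%). Neither line was separated from J1 for 2392 (14.4%). Myc, the growth regulator, was 18.1 ± 1.11 CPM in J1, 6.55 ± 0.992 in OCT4 and 45.1 ± 0.178 in EWS-OCT4. Pax6, a neural and eye regulator, was 2.02 ± 0.197 CPM in J1, 0.455 ± 0.136 in OCT4 and 10.5 ± 0.414 in EWS-OCT4, and Creb5, a CREB-family factor, 1.65 ± 0.0483 CPM in J1, 0.678 ± 0.16 in OCT4 and 68.2 ± 1.45 in EWS-OCT4. Esx1, a placental homeobox gene, was 17.5 ± 3.82 CPM in J1, 79.9 ± 8.32 in OCT4 and 3.44 ± 0.44 in EWS-OCT4. Capn6, Car8 and Stra8, a gene of meiotic entry, were also high in OCT4 and low in EWS-OCT4, with log2 differences of -5.28, -3.49 and -3.66.

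**Figure D5:**
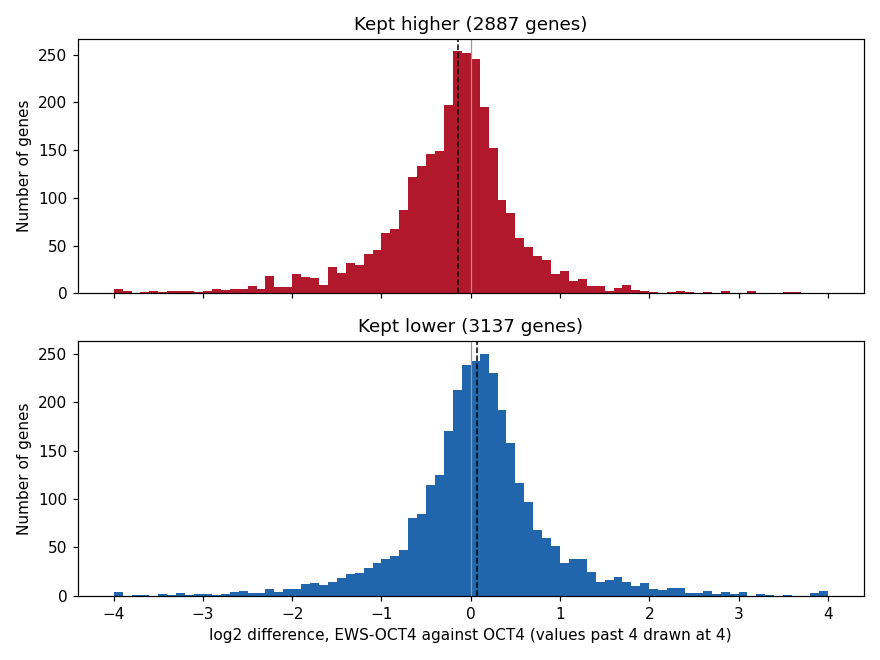
Distribution of the log2 difference between EWS-OCT4 and OCT4 (horizontal axis) over the 2887 genes kept higher and the 3137 kept lower (vertical axis, number of genes), with dashed lines at the medians of -0.138 and 0.072. The higher genes lean to the left, toward OCT4.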

How the data were processed

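RNA was measured in 9 libraries: 3 of J1 mouse ES cells, 3 of an OCT4 line and 3 of an EWS-OCT4 line. Total RNA was extracted with RNAiso Plus and made into CORALL RNA-seq V2 libraries, per the labels' protocols. The authors deposited 1 table of whole-number counts per gene symbol for each library. Per the submitters' processing notes, the tools were STAR, Salmon, fastp and GATK (versions not given) and the build GRCm39. Annotation, strand setting and handling of molecular identifiers were not given in the sources used. Without a strand setting, reads of overlapping and antisense genes cannot be told apart.

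From the counts, CPM was computed with TMM scaling (factors 0.958 to 1.03) from library totals of 21149358 to 24786305 reads. Of 40213 symbols, 12189 had no read anywhere, and edgeR's filterByExpr (at least 10 counts, total of at least 15) left 16562 genes. A robust quasi-likelihood fit (edgeR 4.0.16, R 4.3.3) over the 3 groups gave the pooled stable lines against J1, each line against J1 and EWS-OCT4 against OCT4, with Benjamini-Hochberg adjustment at 0.05. The script was tested on simulated data. DESeq2 1.42.0 and limma 3.58.1 served as alternatives, with other scalings and filters, a replicate block and each library left out in turn.

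The members and the 68 gene lists were chosen with earlier results of these data known. Genes named are 9 anchors, the 12 kept genes per direction with the largest shared change (adjusted p under 0.05, at least 10 CPM), up to 3 kept genes per direction and list with at least 5 CPM, the largest and smallest differences between the stable lines, and genes on opposite sides of J1. The spelling of the mitochondrially encoded genes in their list was adapted to that of the deposited tables. Correlations of same-numbered libraries' deviations were low, at 0 to 0.074, and 0 of 9 pairs passed 0.1, so the main fit held no replicate block. Even so, 8 of 9 libraries correlated best with a library of their own number. Whether the numbers mark a batch was not tested. Chromosomes and gene order came from a GRCm38 annotation by symbol and matched 16089 of the tested genes; no gene coordinates of that build were set beside the GRCm39 counts. RefSeq windows were searched by symbol.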

Additional observations from a re-analysis of the deposited data

Results flagged for a closer look

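Of the kept genes, 3418 differed between the 2 stable lines in the test of that difference, and 2010 genes lay on opposite sides of J1 in the 2 lines. Among kept genes, the log2 difference of EWS-OCT4 against OCT4 was 4.62 for Lefty1, 4.58 for Lefty2, 3.52 for Crmp1, 3.25 for Gap43, 3.22 for Egr1 and 3.04 for Ina. It was -2.85 for Cnga3, -2.62 for Pou5f1, -2.50 for Igf2, -2.47 for Nuak1, -2.29 for Abcc8 and -2.22 for Stox2. Among genes on opposite sides of J1 it was 6.64 for Creb5, 4.50 for Pax6 and 2.78 for Myc, and -5.28 for Capn6, -4.53 for Esx1, -3.66 for Stra8 and -3.49 for Car8. Each of these genes was picked for the size of its difference.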

How the results depend on the processing

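The counts of called and kept genes stayed within 1.5 times their values under RLE and upper-quartile scaling, plain library totals, no filter, a filter of 5 CPM in 3 libraries, DESeq2, limma-voom, and without mitochondrial genes. Upper-quartile scaling shifted the split of calls to 4993 higher and 5508 lower. A test against a 1.5-fold change (glmTreat) called 1837 genes higher and 2016 lower, and 1107 kept genes then differed between the stable lines; Cct8, COX1, Esrrb, Fgf4, Pim2 and Sox2 were among those no longer called. Treating the stable lines as 1 group of 6 called 2522 higher and 2532 lower, and Lefty1, Lefty2, Egr1, Crmp1, Ina, Cnga3, Nuak1, Stox2, Eif2s3y, Esrrb and Fgf4 were no longer called. A gap of at least 1.5-fold between the nearest libraries kept 809 higher and 919 lower, and a gap of 2-fold kept 378 and 432. Without chromosomes 8, 11, 12, 14, 17, X and Y, a setting chosen after seeing the data and with fewer genes tested, 1869 were kept higher and 1876 lower in a fit of their own scaling, and 2091 differed between lines. Leaving out each library in turn gave 4865 to 5201 genes called higher and 4981 to 5202 lower. It gave 3042 to 3389 kept higher, 3275 to 3637 kept lower and 3182 to 4152 kept genes that differed. With 1 library fewer the rule is easier to meet, and both kept ranges lie above the 2887 and 3137 of all 9 libraries. With the replicate block, 5446 were called higher, 5354 lower, and 3494 kept genes differed, and 8 of 9 libraries correlated best with their own number. None of 90 named kept genes and 19 named line differences changed direction under the alternatives run. These genes were picked for their separation or size of difference, so a change of direction was unlikely from the start. Klf4 and Ewsr1, which were not kept, are not among them. Genes with few reads in J1, such as Cdx2 with 4, limit the precision of their ratios.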

Other observations

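Other gene lists are given as the numbers kept higher and kept lower of the genes tested, beside 17.4% and 18.9% over all. Polycomb and trithorax genes gave 16 and 9 of 43, with Bmi1, a subunit of the PRC1 complex, among the higher ones. Targets of p53 gave 8 and 2 of 26, and hypoxia response genes 0 and 10 of 28. KRAB zinc finger genes gave 69 and 43 of 362, and germline and meiosis genes 11 and 12 of 42. Aminoacyl-tRNA synthetase genes gave 2 and 8 of 20, and primitive endoderm genes 1 and 5 of 21. Replication histone genes gave 0 and 1 of 37, and mitochondrially encoded genes 0 and 1 of 13, of which COX1 was the lower one. Cell cycle genes gave 12 and 7 of 52, DNA repair genes 8 and 10 of 44, and muscle genes 3 and 5 of 16.

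Markers of other cell types were summed per library. Fibroblast markers summed to 1655 to 1916 CPM in J1, 2125 to 2254 in OCT4 and 1855 to 1916 in EWS-OCT4. Blood and immune markers summed to 31.29 to 34.91 CPM in J1, 22.54 to 25.67 in OCT4 and 22.2 to 26.19 in EWS-OCT4, and neuroectoderm markers to 157.5 to 193.5, 222.4 to 228.1 and 307.1 to 314.3. Their part in the shared changes was not tested.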
